A study of Mus musculus with 22 samples.

Results

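Expression of 10 genes of the Nrf2 and glutathione defence against oxidants was followed in the small intestine of mice, out of 54838 genes counted. They were listed by name for their known roles and matched to the Ensembl identifiers of the count table. All 10 were found and all 10 passed the filter on low counts used for the values given here. A stricter filter left 8 or 9 of them to test, without Hmox1 and Slc7a11 in the comparison of the muscle-rich with the muscle-poor libraries. The mice were FVB/N females of 8 to 14 weeks, kept in a conventional animal house and bred by intercrossing GRDim heterozygotes. They carried either the wild-type glucocorticoid receptor (GRWT) or, in every cell, a receptor with a dimerisation defect (GRDim). They drank plain water or 25 mM zinc sulfate for 7 days. The GRWT mice gave 5 libraries on plain water and 5 with zinc, and the GRDim mice gave 6 and 6, which makes 22 libraries. The labels call 12 of them ileum (the washed whole ileum) and 10 IEC, for the inner face of the distal ileum scraped off in lysis buffer. Dexamethasone and 2 sequencing sets are named in the submitters' design text, but no label assigns either to a library. Nothing in the labels says that the libraries of a group came from separate mice, so p-values measure the spread between these libraries.

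Nrf2, encoded by Nfe2l2, is a transcription factor that is held down by Keap1 and accumulates when oxidants or electrophiles modify that partner. It then binds antioxidant response elements and raises enzymes that make glutathione, regenerate thiols, supply NADPH and detoxify quinones and haem. The gut epithelium, exposed to microbes, bile and metals, uses this defence constantly, and thiols such as glutathione also bind zinc.

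The members fall into 4 roles. Nfe2l2 (ENSMUSG00000015839, chr2:75675513-75704641) is the regulator. The glutathione group holds Gclc (ENSMUSG00000032350, chr9:77754535-77794485) and Gclm (ENSMUSG00000028124, chr3:122245557-122270732), the catalytic and modifier subunits of the enzyme that limits glutathione synthesis. It also holds Slc7a11 (ENSMUSG00000027737, chr3:49892526-50443614), which imports cystine as its raw material, and Gpx2 (ENSMUSG00000042808, chr12:76792333-76795554), a glutathione peroxidase of the gut epithelium. The thiol and NADPH group holds Txnrd1 (ENSMUSG00000020250, chr10:82833951-82897712), which recharges thioredoxin, Srxn1 (ENSMUSG00000032802, chr2:152105516-152111376), which repairs overoxidised peroxiredoxins, and G6pdx (ENSMUSG00000031400, chrX:74409483-74429194), the entry enzyme of the pentose phosphate pathway. The detoxification group holds Nqo1 (ENSMUSG00000003849, chr8:107388225-107403206), a quinone reductase, and Hmox1 (ENSMUSG00000005413, chr8:75093621-75100589), which breaks down haem. Positions are those of whole genes in GRCm38 (mm10). Gclm shares 540 exon bases with Gm17494 on the other strand and Gm6061 on its own, and G6pdx shares 418 with Ikbkg on the other strand, so part of their counts could be divided or lost.

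Promoters of 8 members were found in RefSeq (GRCm38.p6), each as the 300 bases from 250 before to 50 after the start. Both strands were searched for an antioxidant response element core, TGACNNNGC or TGAGNNNGC, and for a metal response element core, TGCACNC or TGCGCNC, the sequence bound by the zinc sensor Mtf1. Of all 32851 such promoters, 27.8% held the first and 25.7% the second. The sequences of 4 members are given because their levels behaved differently, as described further on: Gclm was higher with zinc, Srxn1 did not pass for zinc, and Gpx2 and G6pdx were higher in GRDim mice on water. Capitals mark matches to either core.

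Gclm (chr3:122245307-122245606, plus strand): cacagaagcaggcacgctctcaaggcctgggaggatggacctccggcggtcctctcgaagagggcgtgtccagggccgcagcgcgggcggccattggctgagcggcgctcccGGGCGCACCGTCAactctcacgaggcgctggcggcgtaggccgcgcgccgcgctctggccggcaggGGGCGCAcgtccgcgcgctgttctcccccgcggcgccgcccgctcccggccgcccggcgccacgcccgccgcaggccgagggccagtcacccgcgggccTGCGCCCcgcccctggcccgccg
Srxn1 (chr2:152105274-152105573, plus strand): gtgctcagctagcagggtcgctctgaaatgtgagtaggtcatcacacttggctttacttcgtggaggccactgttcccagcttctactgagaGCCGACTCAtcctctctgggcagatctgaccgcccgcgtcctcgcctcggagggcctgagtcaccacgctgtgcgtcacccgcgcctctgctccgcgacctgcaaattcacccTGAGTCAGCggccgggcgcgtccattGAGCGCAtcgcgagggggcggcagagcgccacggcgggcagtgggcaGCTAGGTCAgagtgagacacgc
Gpx2 (chr12:76795505-76795804, minus strand): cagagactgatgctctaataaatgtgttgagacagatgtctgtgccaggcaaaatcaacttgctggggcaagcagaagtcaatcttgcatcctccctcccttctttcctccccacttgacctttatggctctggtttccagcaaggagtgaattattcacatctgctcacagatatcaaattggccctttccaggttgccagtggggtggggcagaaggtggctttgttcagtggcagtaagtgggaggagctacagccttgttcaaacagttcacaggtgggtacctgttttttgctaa
G6pdx (chrX:74428831-74429130, minus strand): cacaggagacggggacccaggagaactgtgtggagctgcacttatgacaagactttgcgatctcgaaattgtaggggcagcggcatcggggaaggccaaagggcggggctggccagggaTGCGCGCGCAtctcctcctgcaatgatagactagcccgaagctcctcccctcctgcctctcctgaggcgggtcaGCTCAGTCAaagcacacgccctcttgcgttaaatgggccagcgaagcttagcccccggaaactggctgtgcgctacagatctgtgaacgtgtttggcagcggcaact

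The Gclm promoter held 1 antioxidant match, starting at base -134 from the start site, and 3 metal matches at -138, -72 and 27, the first of which overlaps the antioxidant match. Srxn1 held 3 antioxidant matches (-158, -45 and 28) and 1 metal match at -19. G6pdx held 1 antioxidant match at -57 and 2 overlapping metal matches at -131 and -128, whereas Gpx2 held 0 of either. Of the promoters not printed, Nfe2l2 and Slc7a11 held 1 antioxidant match each, Txnrd1 held 1 in the second of its 3 promoters, and Nqo1 held 0 of either. A match is a description of letters, and its absence speaks only for these windows.

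Muscle content was uneven and did not follow the tissue labels, so that every comparison was made apart in 12 muscle-rich libraries, with Myh11 (smooth muscle myosin) at 298 to 463 CPM (counts scaled to the library total), and in 10 muscle-poor ones, with 3.22 to 20.5. The muscle-rich set held 3 libraries of each condition. These were IEC replicates 4 and 5 and ileum replicate 1 of GRWT mice on either drink, IEC replicates 4 to 6 of GRDim mice on water, and ileum replicates 1 to 3 of GRDim mice on zinc. The muscle-poor set held ileum replicates 2 and 3 of GRWT mice on either drink, 3 ileum libraries of GRDim mice on water (replicate 1 and 2 without a number, called a and b) and IEC replicates 4 to 6 of GRDim mice on zinc. In GRDim mice, zinc therefore coincides with a change of tissue label within either set, in opposite directions, and zinc and label cannot be told apart there. Genotype and label likewise coincide in the muscle-poor set on zinc, where the GRDim libraries are IEC and the GRWT libraries ileum, and in part in the muscle-rich set. Since libraries of either label fell in either set, labels or samples may have been exchanged. This was not tested, and the groups used here follow the labels. Summed epithelial markers were present throughout, at 16560 to 20750 CPM in the muscle-rich and 24890 to 30670 in the muscle-poor libraries. GRWT zinc ileum replicate 3 stood apart, with ileal segment markers at 24.89 CPM against 4766 to 13270 elsewhere, proximal small intestine markers at 13480 against 161.1 to 249.2, and crypt markers at 287.5 against 810.5 to 1206. Values of the muscle-poor set are therefore given with and without it. Library totals were 13149951 to 15620744 counts, and 3 counts corresponded to 0.192 to 0.228 CPM.

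Per kilobase of exon, in normalised CPM of the muscle-rich libraries, the order was Srxn1 (138 ± 8.98, SD, n = 12), Gpx2 (99.9 ± 19.4), Nfe2l2 (48.9 ± 3.79), Txnrd1 (41.7 ± 1.93), Gclc (34.8 ± 6.84), Nqo1 (30.8 ± 9.79), G6pdx (26.7 ± 5.76) and Gclm (23.9 ± 7.99). The ranges over libraries overlapped between Srxn1 and Gpx2, among Nfe2l2, Txnrd1, Gclc and Nqo1, and among the last 4. Hmox1 (1.34 ± 0.415) and Slc7a11 (0.210 ± 0.0764) were far lower. In the 9 muscle-poor libraries without GRWT zinc ileum replicate 3 the first and last pairs stood in the same places, Srxn1 at 193 ± 17.7 and Gpx2 at 135 ± 20.5 against Hmox1 at 0.365 ± 0.208 and Slc7a11 at 0.109 ± 0.0315.

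**Figure D1:**
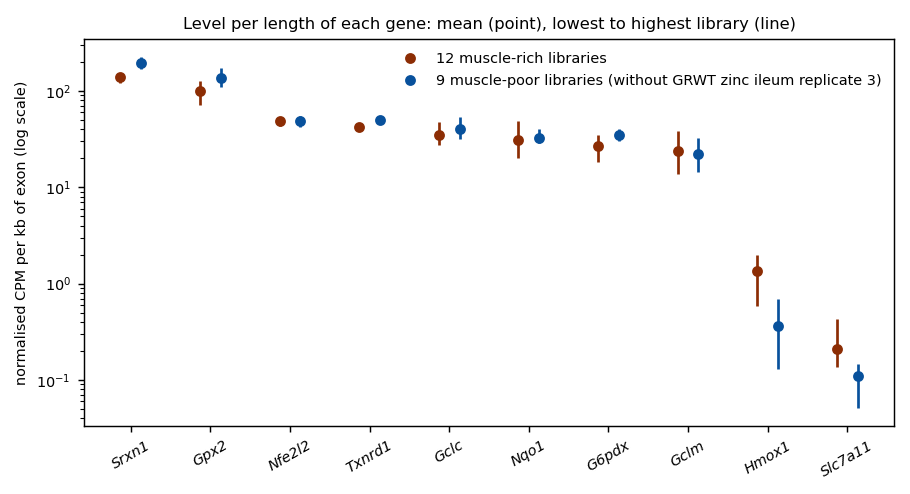
Normalised CPM per kilobase of exon (vertical axis, log scale) for the 10 genes (horizontal axis), with the mean as a point and the lowest and highest library as a line, in 12 muscle-rich and 9 muscle-poor libraries. Srxn1 and Gpx2 lie highest, and Hmox1 and Slc7a11 lie more than an order of magnitude below the other 8.

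Gclm rose with zinc in both genotypes. It was the only member that passed the test of zinc (edgeR quasi-likelihood, Benjamini-Hochberg adjusted over all genes) in the muscle-rich libraries, in GRWT as in GRDim mice. Its catalytic partner Gclc, the regulator Nfe2l2 and the peroxide-repair gene Srxn1 did not pass. Of these, Gclc in GRWT mice (adjusted p = 0.0609) and Nfe2l2 in GRDim mice (adjusted p = 0.0518) lay just above the threshold. Srxn1 was far from it (adjusted p = 0.763 and 0.621). Whether Gclm changed more than these genes was not tested, and DESeq2 called more members in both genotypes. Of all genes tested, 0.383% passed in GRWT and 7.7% in GRDim mice, against 1 of 10 members in each. The median log2 change of the 10 was 0.16 and 0.01, beside medians of 0.0075 and -0.013 over all genes tested.

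In GRWT mice on water, Gclm stood at 123, 131 and 134 normalised CPM, and on zinc at 218, 183 and 240. The lowest zinc library lay above the highest water library, and the log2 fold change was 0.73 ± 0.105 (SE, adjusted p = 0.00956). The call was lost without GRWT water IEC replicate 4 or 5, at 0.68 and 0.74 (adjusted p = 0.0647 and 0.0601). In GRDim mice, Gclm stood at 93.8, 91.8 and 85.7 on water and at 187, 174 and 143 on zinc. Again the groups did not overlap, and the log2 fold change was 0.88 ± 0.106 (adjusted p = 0.000792). The level of the GRDim mice on zinc, 168 ± 22.4 (SD, n = 3), stayed below that of the GRWT mice on zinc, 214 ± 28.7 (SD, n = 3).

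The muscle-poor libraries had Gclm at 153 and 130 CPM in GRWT mice on water and at 204 and 599 on zinc, the second of these being ileum replicate 3. In GRDim mice they had 89.6, 109 and 111 on water and 178, 146 and 143 on zinc. All zinc libraries lay above the water libraries of their genotype, although neither log2 fold change passed in the 10 libraries (1.51 ± 0.407, adjusted p = 0.228, and 0.60 ± 0.327, adjusted p = 0.732). Without ileum replicate 3 the GRDim change passed at 0.61 ± 0.122 (adjusted p = 0.0185), and the GRWT value, resting on 1 zinc library, was 0.53 ± 0.177 (adjusted p = 0.33). In GRDim mice zinc went with the ileum label in the muscle-rich set and with the IEC label here, and the sign was positive in both. Zinc and label cannot be told apart within either set. Over the 21 libraries without ileum replicate 3, with muscle content as a term, Gclm rose in GRWT mice by 0.66 ± 0.10 (adjusted p = 0.00153). For GRDim mice the same fit gave 0.74 ± 0.0872 (adjusted p = 2.58e-05). In that fit, chosen after seeing the data, 0.558% and 11.2% of all genes passed. With ileum replicate 3 kept in, the GRDim change was 0.76 with muscle content as a term (adjusted p = 0.0514), 0.75 with the tissue label (adjusted p = 0.185) and 0.72 with muscle content and the replicate block over numbered libraries (adjusted p = 0.141), so the call was lost. The GRWT change was lost with the tissue label (1.06, adjusted p = 0.0594) and with that block (0.98, adjusted p = 0.191).

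Some summed markers also differed with zinc in the muscle-rich libraries. Smooth muscle markers summed to 1931 to 2112 CPM in GRWT mice on water and 1382 to 1863 on zinc. In GRDim mice epithelial markers summed to 18290 to 19670 on water and 19900 to 20750 on zinc, and macrophage markers to 230.6 to 252.9 and 175.2 to 227.5. None of these 3 pairs of sums overlapped, and their part in the change of Gclm was not tested. The sums of all other marker lists overlapped between drinks. Among these were smooth muscle in GRDim mice (1432 to 1634 and 1222 to 1611) and epithelium in GRWT mice (17720 to 18290 and 16560 to 19250).

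**Figure D2:**
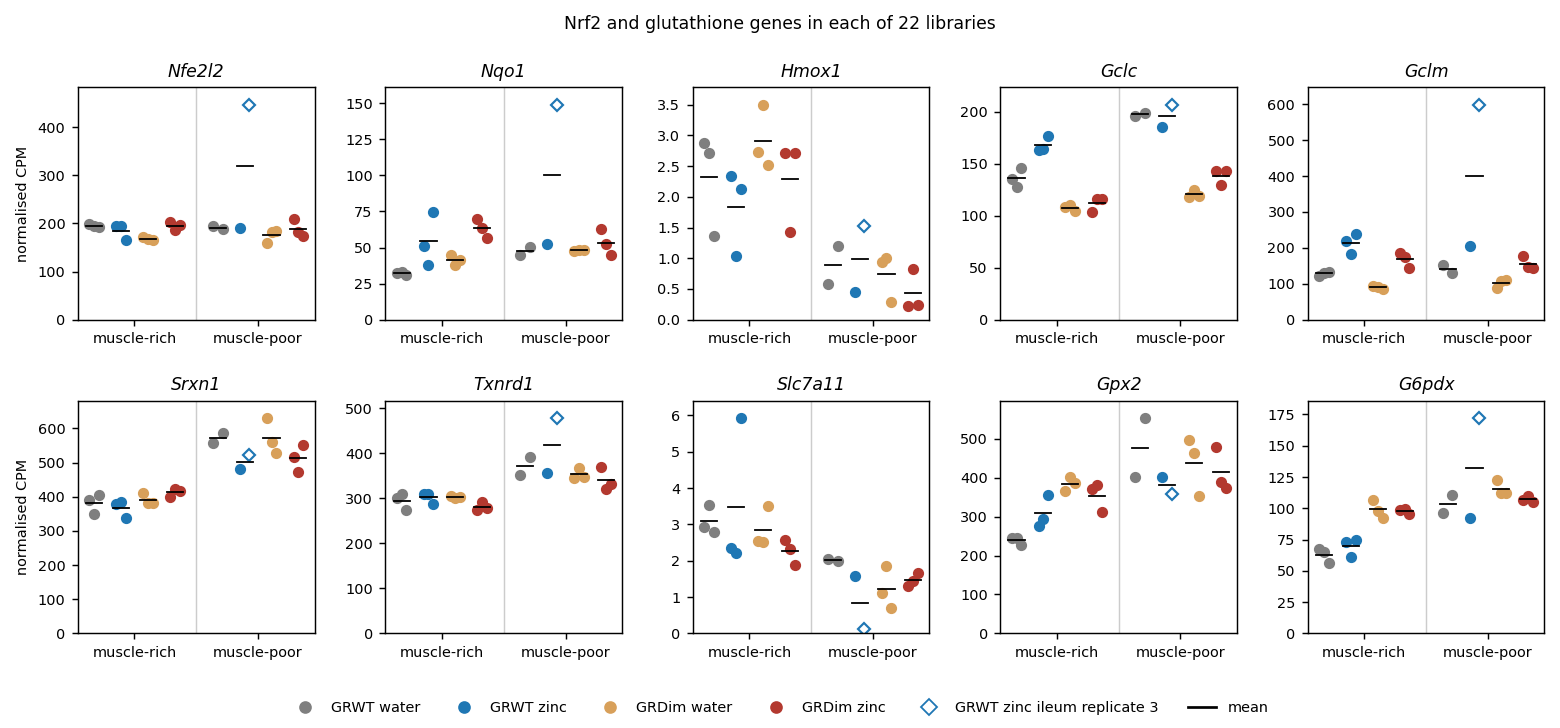
Normalised CPM (vertical axes, linear from 0) of each gene in each of the 22 libraries, by muscle content and, in colour, by genotype and drink, with black bars at the mean of each group and an open diamond for GRWT zinc ileum replicate 3. Gclm lies higher on zinc than on water in both genotypes, and Gclc lies lower in GRDim mice, whereas the diamond stands far above its group for Nfe2l2, Nqo1 and Gclm.

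Nqo1, the quinone reductase often used as a readout of Nrf2, had higher values on zinc without passing. In the muscle-rich libraries it stood at 32.3, 32.9 and 31.0 CPM in GRWT mice on water and at 51.1, 38.1 and 74.7 on zinc. In GRDim mice it stood at 44.6, 38.2 and 41.2 on water and at 70.0, 63.5 and 56.9 on zinc. Neither pair of groups overlapped, but the zinc libraries were scattered, and the log2 fold changes were 0.77 ± 0.210 (adjusted p = 0.205) and 0.61 ± 0.206 (adjusted p = 0.115). In the muscle-poor set, GRWT mice had 45.1 and 50.2 on water and 52.1 and, in ileum replicate 3, 149 on zinc. The GRDim groups overlapped there, with 47.7, 48.2 and 48.5 on water and 62.5, 52.2 and 45.0 on zinc.

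Gclc, the catalytic subunit, was at 135, 128 and 146 CPM in muscle-rich libraries of GRWT mice on water and at 163, 164 and 177 on zinc, with no overlap and a log2 difference of 0.30 ± 0.0645 that missed the threshold (adjusted p = 0.0609). In GRDim mice it was at 108, 110 and 105 on water and at 104, 116 and 116 on zinc, which overlapped (0.05 ± 0.0654, adjusted p = 0.697). The ratio of Gclm to Gclc, each per kilobase, described the shift between the subunits within a library. It was 0.489 to 0.617 in the 6 muscle-rich water libraries and 0.667 to 1.07 in the 6 muscle-rich zinc libraries, without overlap. In the muscle-poor libraries it was 0.389 to 0.558 on water and 0.602 to 0.747 on zinc, leaving aside ileum replicate 3 at 1.73.

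Gpx2 stood at 245, 245 and 228 CPM in muscle-rich libraries of GRWT mice on water and at 276, 295 and 355 on zinc, without overlap or a pass (0.37 ± 0.0945, adjusted p = 0.129). In GRDim mice it was 365, 402 and 387 on water and 370, 382 and 311 on zinc (-0.13 ± 0.0939, adjusted p = 0.456). In the muscle-poor libraries of GRWT mice the sign was the opposite, at 402 and 553 on water and 403 and 359 on zinc (-0.31 ± 0.219, adjusted p = 0.45, and -0.23 ± 0.243 without ileum replicate 3). Nfe2l2 itself differed with zinc by -0.08 ± 0.0611 in GRWT and by 0.21 ± 0.0612 in GRDim mice (adjusted p = 0.648 and 0.0518).

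Srxn1, Txnrd1 and G6pdx lay within 0.15 of 0 on the log2 scale for zinc in either genotype of the muscle-rich libraries. In GRDim mice Txnrd1 was lower on zinc without overlap, at 306, 301 and 303 CPM on water and 273, 292 and 279 on zinc. It did not pass (-0.12 ± 0.0566, adjusted p = 0.233). Srxn1 differed by -0.06 ± 0.0670 in GRWT and 0.07 ± 0.0670 in GRDim mice, so its errors are small beside the change of Gclm. The low Hmox1 and Slc7a11 had SEs of 0.324 to 0.343, several times larger, so small changes were not detectable for them. Slc7a11 was 2.94, 3.53 and 2.78 CPM in GRWT mice on water against 2.34, 2.21 and 5.92 on zinc, with 1 high library.

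**Figure D3:**
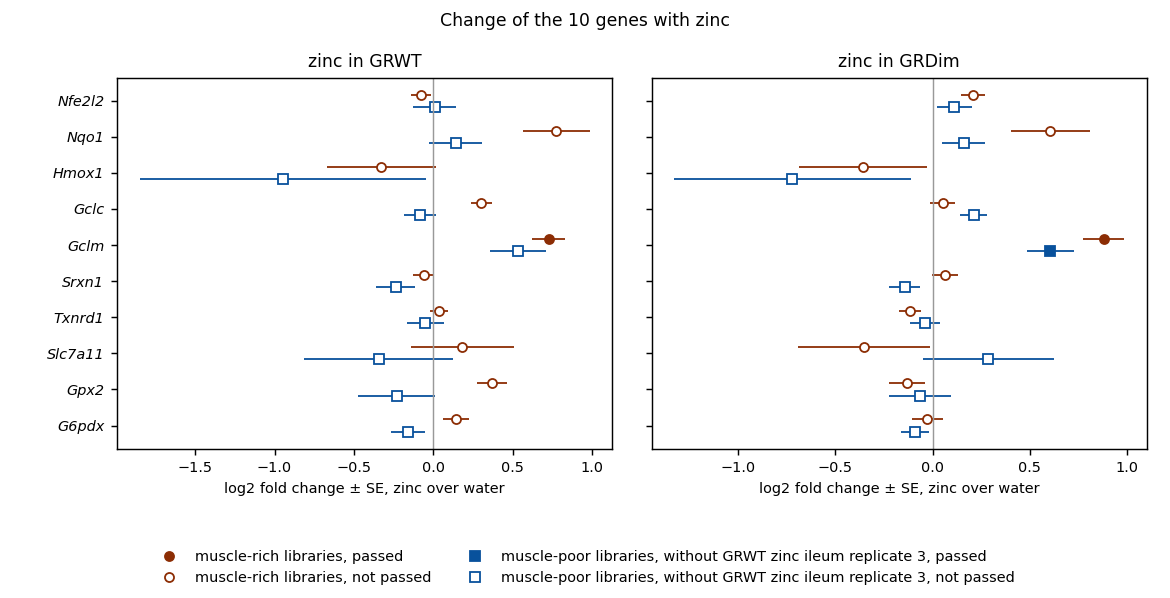
Log2 fold change of zinc over water (horizontal axes) with its standard error for the 10 genes (vertical axis), in GRWT mice (left) and GRDim mice (right), as circles for the 12 muscle-rich and squares for the 9 muscle-poor libraries without GRWT zinc ileum replicate 3. Filled symbols passed an adjusted p of 0.05: Gclm at 0.73 and 0.88 in the muscle-rich libraries, and at 0.61 in the muscle-poor libraries of GRDim mice.

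In the muscle-poor set of 10 libraries 0 members passed for zinc in GRWT mice, where 0.0431% of all genes did, and 0 in GRDim mice, where 0.0575% did. At an unadjusted p under 0.05 there were 3 members (Nfe2l2, Nqo1 and Gclm) and 1 member (Gclc), and DESeq2 called 1 and 0. Without ileum replicate 3 the shares of all genes that passed were 0.202% and 5.15%.

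On plain water, in the muscle-rich libraries, Gpx2 and G6pdx were higher in GRDim mice, and Gclc, Gclm and Nfe2l2 were lower. These 5 of 10 members stand beside 38.7% of all genes that passed in this comparison, so that the members' share lies near that of all genes.

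For the glutathione-synthesis pair, Gclc had 108, 110 and 105 CPM in GRDim mice on water and 135, 128 and 146 in GRWT mice. All GRDim libraries lay below all GRWT libraries, with a log2 difference of -0.33 ± 0.0651 (adjusted p = 0.000947). Gclm likewise had 93.8, 91.8 and 85.7 in GRDim against 123, 131 and 134 in GRWT mice, a difference of -0.51 ± 0.106 (adjusted p = 0.00244). Nfe2l2 had 171, 167 and 166 against 199, 194 and 192, again without overlap (-0.21 ± 0.0612, adjusted p = 0.0142). That call was lost without GRDim water IEC replicate 6 (-0.20, adjusted p = 0.051).

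The other 2 members went the opposite way. Gpx2 had 365, 402 and 387 CPM in GRDim against 245, 245 and 228 in GRWT mice (0.69 ± 0.0946, adjusted p = 6.13e-05). G6pdx had 107, 98.2 and 91.9 against 67.4, 65.2 and 56.3 (0.66 ± 0.0812, adjusted p = 2.14e-05). Neither pair of groups overlapped. In the fit of 21 libraries Gpx2 differed by 0.31 ± 0.144 and no longer passed (adjusted p = 0.108), while G6pdx did (0.42 ± 0.0897, adjusted p = 0.00127). Over all 22 libraries, with either muscle content or the tissue label as a term, Gclc alone of the 5 members passed.

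Among the markers, those of macrophages summed to 230.6 to 252.9 CPM in the muscle-rich GRDim libraries on water and to 143.4 to 193.3 in the GRWT ones, with 3 of 8 markers higher. Ileal segment markers summed to 4766 to 6105 CPM in the GRDim and 7789 to 9396 in the GRWT libraries, without overlap, with 2 of 3 lower. Of the 10 smooth muscle markers 6 were lower and 0 higher, of the 6 crypt markers 1 was higher and 3 were lower, and of the 10 epithelial markers 4 were higher and 3 lower. The part of these cell types and of the segment in the differences was not tested, and in whole-tissue RNA fewer cells of a type and less RNA per cell cannot be told apart.

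On zinc, 3 of 10 members passed between the genotypes in the muscle-rich libraries, where 18.8% of all genes did. Gclc was 104, 116 and 116 CPM in GRDim against 163, 164 and 177 in GRWT mice, well apart (-0.58 ± 0.0650, adjusted p = 3.05e-05). G6pdx was 98.7, 99.3 and 95.4 against 73.1, 60.9 and 74.5 (0.49 ± 0.0809, adjusted p = 0.000854). Over all 22 libraries the G6pdx call was lost, at 0.137 with muscle content as a term and 0.185 with the tissue label (adjusted p = 0.57 and 0.73). In the fit of 21 libraries G6pdx passed (0.37 ± 0.097, adjusted p = 0.0225). Gclm was lower by 0.35 ± 0.104 on the log2 scale (adjusted p = 0.0334), although its groups overlapped, the highest GRDim library at 187 exceeding the lowest GRWT library at 183. Its call was lost without GRDim zinc ileum replicate 2 or 3, GRWT zinc IEC replicate 4 or GRWT zinc ileum replicate 1, at -0.38, -0.25, -0.35 and -0.25 (adjusted p = 0.0609, 0.0962, 0.0876 and 0.0934). Gpx2 did not pass on zinc (0.19 ± 0.0941, adjusted p = 0.171). Epithelial markers also stood apart here, at summed levels of 19900 to 20750 CPM in GRDim against 16560 to 19250 in GRWT mice, with 4 of 10 higher and 0 lower, and their part in these differences was not tested.

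The lower Gclc of GRDim mice was also present in the muscle-poor libraries. There it was 118, 125 and 119 CPM in GRDim against 196 and 199 in GRWT mice on water, and 143, 130 and 143 against 185 and 207 on zinc. The groups were apart on either drink, though on zinc genotype and tissue label coincide there, at log2 differences of -0.74 ± 0.10 and -0.53 ± 0.10 that missed the threshold in the 10 libraries (adjusted p = 0.0684 and 0.146). Without ileum replicate 3 the difference on water passed at -0.73 ± 0.0758 (adjusted p = 0.000347) and that on zinc was -0.44 ± 0.0946 (adjusted p = 0.162). Over the 21 libraries Gclc was lower in GRDim mice by 0.51 ± 0.0640 on the log2 scale on water (adjusted p = 1.05e-05) and by 0.54 ± 0.0688 on zinc (adjusted p = 0.000293). There, 33.2% and 9.22% of all genes passed. Ileal segment markers were likewise lower in sum in the muscle-poor GRDim libraries on water, at 9656 to 10860 CPM against 12530 to 13270 in the GRWT ones, although 0 of 3 passed, and their part in the Gclc difference was not tested.

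Gpx2 and G6pdx were less far apart in the muscle-poor set. Gpx2 had 496, 464 and 354 CPM in GRDim and 402 and 553 in GRWT mice on water, which overlapped (-0.15 ± 0.199). G6pdx had 123, 112 and 112 against 96.4 and 111 (0.13 ± 0.214). Without ileum replicate 3 these were -0.15 ± 0.179 and 0.13 ± 0.081, neither passing. The difference between the muscle-rich and muscle-poor effects was tested directly. It was 0.82 ± 0.212 for Gpx2 (adjusted p = 0.069), 0.38 ± 0.107 for Gclc (adjusted p = 0.104) and 0.51 ± 0.217 for G6pdx (adjusted p = 0.337) in all 22 libraries, so 0 members passed, where 1.41% of all genes did. At an unadjusted p under 0.05 these 3 members were counted, and DESeq2 called 1 member. Without ileum replicate 3, where 7.81% of all genes passed, all 3 did, with the same estimates to 2 decimals and adjusted p of 0.0234, 0.0182 and 0.011. The corresponding tests of the zinc effect passed for 0 members, in GRWT mice (0.0192% of all genes, 3 members at an unadjusted p under 0.05, 0 by DESeq2) as in GRDim mice (0% of all genes, 0 members at that p, 0 by DESeq2).

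In the 10 muscle-poor libraries 0 members passed between genotypes on water (0.0288% of all genes) or on zinc (0.0575%). At an unadjusted p under 0.05 there were 1 and 4 members, and DESeq2 called 1 and 2.

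**Figure D4:**
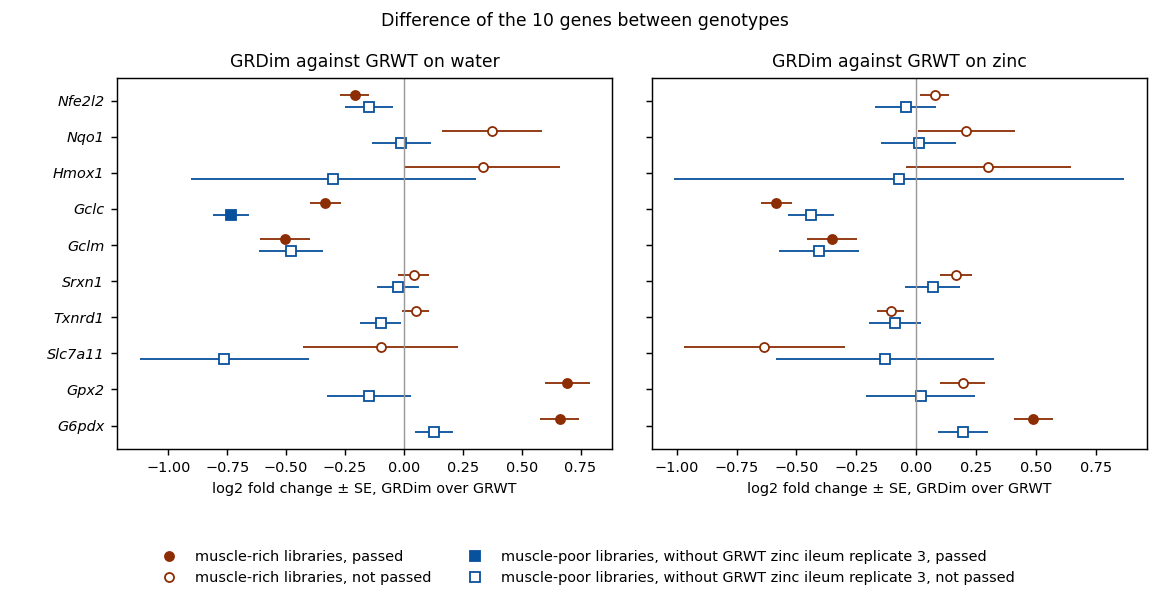
Log2 fold change of GRDim over GRWT mice (horizontal axes) with its standard error for the 10 genes (vertical axis), on water (left) and on zinc (right), as circles for the 12 muscle-rich and squares for the 9 muscle-poor libraries without GRWT zinc ileum replicate 3, filled where an adjusted p of 0.05 was passed. Gclc and Gclm lie below 0 in all 4 sets of values, while Gpx2 at 0.69 and G6pdx at 0.66 lie above 0 in the muscle-rich libraries on water.

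Whether zinc acted differently in the 2 genotypes was tested as an interaction, which compares the 2 zinc changes. In the muscle-rich libraries 0 members passed by edgeR, beside 0.263% of all genes. There were 3 with an unadjusted p under 0.05, and DESeq2 called 2 of them (Nfe2l2 and Gpx2). The log2 difference of the zinc changes, GRDim minus GRWT, was -0.50 ± 0.133 for Gpx2 (adjusted p = 0.111), 0.29 ± 0.0865 for Nfe2l2 (adjusted p = 0.148) and -0.25 ± 0.0918 for Gclc (adjusted p = 0.219). For Gclm it was 0.15 ± 0.148 (adjusted p = 0.658). In the muscle-poor libraries 0 members passed, with 0% of all genes, 0 members at an unadjusted p under 0.05 and 0 by DESeq2.

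Muscle content itself went with the level of 7 members, beside 62.7% of all genes. Hmox1 and Slc7a11 were higher in muscle-rich libraries. Hmox1 lay at 1.03 to 3.5 CPM there and at 0.230 to 1.52 in the muscle-poor libraries, a log2 difference of 1.74 ± 0.282 (adjusted p = 1.67e-05), though the sets overlapped. Macrophage markers, of which 8 of 8 were higher, summed to 143.4 to 252.9 CPM in muscle-rich and 7.081 to 19.13 in muscle-poor libraries, and red blood cell markers to 3.241 to 30.37 against 0.3062 to 5.491. Their part in Hmox1, a haem enzyme of macrophages, was not tested. Slc7a11, at 1.88 to 5.92 CPM against 0.109 to 2.06, differed by 1.05 ± 0.256 (adjusted p = 0.00123). In the muscle-poor libraries Hmox1 was at the limit of 3 counts in GRDim zinc IEC replicates 4 and 6, and Slc7a11 was below it in ileum replicate 3, with 1 count.

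The other 5 were lower in muscle-rich libraries, at log2 differences of -0.45 ± 0.0490 for Srxn1, -0.45 ± 0.103 for G6pdx, -0.39 ± 0.10 for Gpx2, -0.29 ± 0.05 for Txnrd1 and -0.28 ± 0.0476 for Gclc. Epithelial markers moved along, with 8 of 10 lower and a median of -0.44. Srxn1 separated the sets fully, at 338 to 423 CPM against 473 to 630. Nfe2l2, Nqo1 and Gclm did not pass. With library totals in place of TMM normalisation, 4 of the 7 passed (Hmox1, Slc7a11, Srxn1 and G6pdx).

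Of 85 further genes of the pathway in 7 lists, 83 were tested in the muscle-rich libraries. With zinc in GRWT mice 3 were higher and 0 lower, beside 0.383% of all genes passing, all glutathione S-transferases, which join glutathione to electrophiles. Gstm1 differed by 0.75 ± 0.0906 (adjusted p = 0.0013), Gsto1 by 0.63 ± 0.0789 and Mgst1 by 0.31 ± 0.0560 (adjusted p = 0.0279). The Mgst1 call was lost without any 1 of GRDim water IEC replicates 4, 5 and 6, GRWT water IEC replicates 4 and 5 and GRWT zinc IEC replicates 4 and 5, at 0.28 to 0.34 (adjusted p up to 0.143). Over all 22 libraries, GRWT zinc ileum replicate 3 included, Gstm1 stood at 3.56 with muscle content as covariate and 3.62 with the tissue label and no longer passed (adjusted p = 0.123 and 0.222), and Gsto1 was 0.96 (adjusted p = 0.0312) and 1.01 (adjusted p = 0.187). Over the 21 libraries both passed, at 0.88 for Gstm1 and 0.59 for Gsto1 (adjusted p = 0.00561 and 8.71e-06). The near-identical Gstm copies may share reads that were left out of the counts. This list of 19 tested genes had a median of 0.22 on the log2 scale, against 0.0075 for all genes tested.

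In GRDim mice 14 were higher with zinc and 4 lower, beside 7.7% of all genes. Gstm1 again was higher (0.95 ± 0.0904, adjusted p = 0.00018), together with Abcc2, an export pump for glutathione conjugates (1.37 ± 0.256), Ugdh, which makes the substrate of glucuronidation (0.72 ± 0.153), and Gstk1 (0.68 ± 0.148). The 4 lower genes were the peroxiredoxins Prdx6 (-0.49 ± 0.0713), Prdx4 (-0.30 ± 0.0716) and Prdx3 (-0.18 ± 0.0483), which reduce peroxides, and thioredoxin, Txn1 (-0.22 ± 0.0579). All values are log2 fold changes with adjusted p under 0.05. Gstm1 and Prdx6 passed without each library in turn, whereas Abcc2, Ugdh, Gstk1, Prdx4, Txn1 and Prdx3 no longer passed without any 1 of GRDim water IEC replicates 4, 5 and 6 and GRDim zinc ileum replicates 1 and 2. Their adjusted p then ran from 0.0538 to 0.167, and Abcc2, for example, stood at 1.22 to 1.44. Prdx3 was also lost without GRWT water IEC replicate 4 (-0.18, adjusted p = 0.0518). Over all 22 libraries, with muscle content or the tissue label as a term, each of these named genes lost its call. Gstm1 then stood at 1.02 and 0.96 (adjusted p = 0.535 and 0.885) and Prdx6 at -0.38 and -0.36 (adjusted p = 0.179 and 0.718). In the fit of 21 libraries each of them passed.

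Between genotypes on water 22 were higher and 19 lower in GRDim mice among the 83, beside the 38.7% of all genes. The higher genes included Gsr, which recycles oxidised glutathione (1.03 ± 0.0686), Akr1b8, an aldo-keto reductase (1.71 ± 0.254), the conjugate pump Abcc3 (1.53 ± 0.0924) and Prdx6 (0.76 ± 0.0718). The lower ones included Abcc2 (-1.81 ± 0.255), catalase, Cat (-0.98 ± 0.0971), and Gstk1 (-1.07 ± 0.146). In the list of glutathione synthesis and recycling 3 of 12 genes were higher and 3 lower, beside 19.7% and 18.9% of all genes. On zinc 10 were higher and 15 lower, beside 18.8% of all genes, and Gsr (0.56 ± 0.0680), Akr1b8 (1.36 ± 0.248), Abcc3 (1.04 ± 0.0915), Abcc2 (-0.92 ± 0.238) and Gstk1 (-0.73 ± 0.141) kept their direction. The Abcc2 call on zinc was lost without GRDim zinc ileum replicate 2 or 3 or GRWT zinc IEC replicate 5 (-0.99, -0.71 and -0.69). Over all 22 libraries the Abcc3 call on zinc was lost, at 0.49 with muscle content as a term and 0.57 with the tissue label (adjusted p = 0.216 and 0.423). With the tissue label Gsr (0.56), Abcc2 (-0.76) and Gstk1 (-1.43) also lost their calls on zinc, and Akr1b8 kept its own (1.17, adjusted p = 0.0466). The water libraries of GRDim mice enter both this comparison on water and that of zinc in GRDim mice, so genes such as Abcc2 and Prdx6 that are listed in both share those values. For the interaction 0 of 83 passed, with 21 at an unadjusted p under 0.05.

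In the 10 muscle-poor libraries 0 of the 81 genes tested passed in each of the 5 comparisons by edgeR, with 5 to 49 at an unadjusted p under 0.05. Without ileum replicate 3, zinc in GRDim mice had 12 higher and 2 lower, beside 5.15% of all genes. Among them Gstk1 (0.61), Ugdh (0.46) and Txn1 (-0.31) had the sign they had in the muscle-rich libraries, and Gsto1 (0.50) had that of GRWT mice there. Genotype on water had 3 higher and 2 lower, beside 3.16% of all genes, with Gsr at 0.47, Akr1b8 at 1.4, Gpx1, a cytosolic glutathione peroxidase, at 0.39, Gstk1 at -0.75 and Ugdh at -0.51. The other 3 comparisons had 0, with 7 to 19 genes at an unadjusted p under 0.05. Names in this paragraph were chosen after their values were seen.

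**Figure D5:**
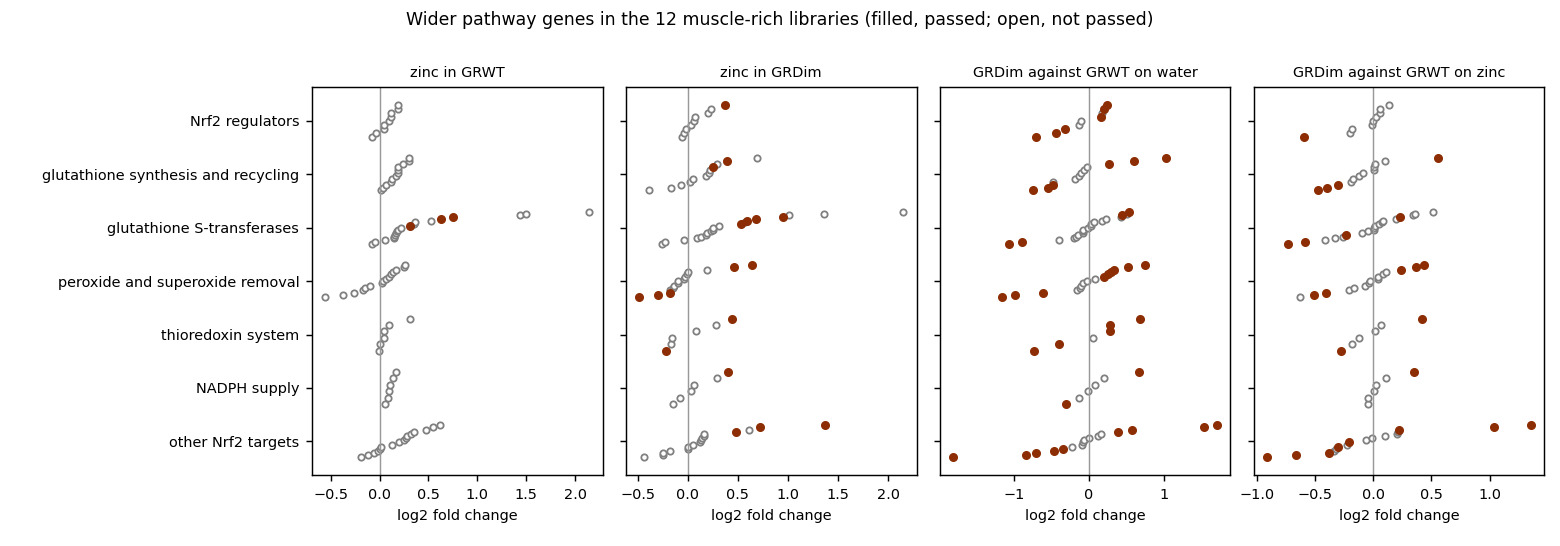
Log2 fold change (horizontal axes) of each tested gene of the 7 wider pathway lists (rows) in the 12 muscle-rich libraries, in the 4 comparisons of zinc and genotype, filled where an adjusted p of 0.05 was passed. With zinc in GRWT mice 3 genes passed, all of them glutathione S-transferases, while between genotypes on water 22 genes were higher and 19 lower.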

How the data were processed

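RNA was sequenced from 22 libraries as stranded single-end reads. Per the labels and the study's methods, the authors trimmed reads with Trimmomatic, mapped them to mm10 with HISAT2 2.0.4 and made gene counts with featureCounts, in which multi-mapping reads were not counted. The strand setting and annotation release are not given in the sources used here. The deposited values are raw counts. Members and gene lists were chosen with earlier results of these data known.

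Counts were tested with edgeR 4.0.16 in R 4.3.3 (TMM normalisation, filterByExpr with a minimum count of 10, robust quasi-likelihood test), apart for the muscle-rich (Myh11 above 100 CPM) and muscle-poor libraries, with the 4 conditions as groups and p-values adjusted by Benjamini-Hochberg over all genes. There were 15947 and 13908 genes tested. A gene passed at an adjusted p under 0.05. The effect of muscle content and its interactions were fitted over all 22 libraries. Printed levels are CPM normalised over the 22 libraries. SEs were derived from the F statistic. Wider pathway genes were named as up to 4 per direction with the largest changes among those that passed, with a group mean of at least 1 CPM.

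Replicate numbers were not used to pair libraries. Of 25 same-numbered pairs, 9 deviated together (r above 0.1), a check that cannot settle whether libraries were paired. Alternatives were DESeq2 1.42.0, other normalisation, filters, covariates, the fold threshold of 0.8, replicate blocks and leaving out each library. The floor of 3 counts covers counting error only.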

Additional observations from a re-analysis of the deposited data

Results flagged for a closer look

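Within the 4 conditions, pooled over muscle content, 40 groups of libraries were examined for a library far from the rest (10 genes in 4 groups), and chance alone gives about 1 in 20. There were 3 such values, a number near that given by chance. All were in GRWT zinc ileum replicate 3, so they are not independent. Nfe2l2 was 447 CPM there against 165 to 195 in the other 4 GRWT zinc libraries, Gclm was 599 against 183 to 240, and G6pdx was 172 against 60.9 to 92.3. The TMM factor of this library was 0.63, against 0.8962 to 1.13 in the others, which raises all its normalised values. Scaled to library totals alone, Nfe2l2 was 281 CPM against 179 to 208 and Gclm 378 against 191 to 271. On that scale G6pdx was 108 against 64.3 to 86.5. This library also lacked ileal segment transcripts and carried those of the proximal small intestine, and the part of that difference in these values was not tested.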

How the results depend on the processing

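No member that passed reversed its sign under an alternative run. In the counts of members that passed, zinc in GRWT mice (muscle-rich, 1) became 4 with DESeq2, 2 without a filter, 0 beyond a fold of 0.8 and 0 with the tissue label as covariate. Zinc in GRDim mice (muscle-rich, 1) became 3 with DESeq2 or with only the compared conditions, 2 with library totals or the stricter filter, and 0 with muscle content or tissue label as covariate over all 22 libraries. Genotype on water (muscle-rich, 5) became 1 with either covariate and 0 beyond 0.8, and genotype on zinc (muscle-rich, 3) became 0 with the tissue label and 0 beyond 0.8. The interaction (muscle-rich, 0) became 2 with DESeq2 and 1 without a filter. Muscle content (7) became 4 with library totals and 2 beyond 0.8. The difference in genotype effect on water (0) became 1 with DESeq2. In the muscle-poor set, all at 0, zinc in GRWT mice became 1 with DESeq2 or muscle content as covariate, zinc in GRDim mice 1 with only the compared conditions, genotype on water 1 with DESeq2 or either covariate and 2 with only the compared conditions, and genotype on zinc 2 with DESeq2 or muscle content as covariate. In the fit of 21 libraries, chosen after seeing the data, these 4 were 1, 1, 4 and 3. The cause was not tested. The further genes named in the muscle-rich comparisons lost their call in 0 to 14 of 24 alternatives, and 0 reversed. With zinc in GRWT mice these were 4 for Gstm1 (0.69 to 3.62 over all 24), 3 for Gsto1 (0.59 to 1.01) and 14 for Mgst1 (0.14 to 0.34).

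Of 25 same-numbered pairs, 9 correlated above 0.1 (-0.252 to 0.358). Without differently numbered pairs beside them, this cannot settle whether the numbers pair the libraries. With the replicate block over numbered libraries the counts were 0, 0, 2 and 1 for zinc in GRWT, zinc in GRDim, genotype on water and genotype on zinc in the muscle-rich set, and 2 and 1 for the last 2 in the muscle-poor set. The block within the muscle-rich libraries, added later, gave 1 for genotype on zinc.

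Leaving out each library in turn, the muscle-rich counts ranged from 0 to 2 for zinc in GRWT and from 1 to 3 for zinc in GRDim mice. The muscle-poor counts ranged from 0 to 6 (zinc in GRWT), 0 to 1 (zinc in GRDim), 0 to 1 (genotype on water), 0 to 7 (genotype on zinc) and 0 to 6 (interaction), and the differences between sets from 0 to 7 (zinc in GRWT) and 0 to 3 (genotype on water). The counts of 6 and 7 arose without GRWT zinc ileum replicate 2, which left replicate 3 as the lone library of its group, assumed to vary like the others. Depth limits Hmox1 and Slc7a11.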

Other observations

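Over the 12 muscle-rich libraries, which span the 4 conditions, the genes whose normalised log2 level followed a member most closely among 15947 were listed as a description. For Gclm they were Tmem42 (Pearson r = 0.974), Fam210b (0.974) and Ndrg1 (0.971). For Gclc they were Mepce (0.976), Vav3 (0.972) and Cacfd1 (0.954). G6pdx was followed by Elmsan1 (0.985), Dock11 (0.976) and Nlrc5 (0.971), and Gpx2 by Birc3 (0.945), Hcst (0.944) and Slc2a3 (0.940). Nfe2l2 was followed by Socs4 (0.947), Itprid2 (0.917) and Pdzd8 (0.910). No member stood in the list of another, and all points share their libraries and groups.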
